A study of Mus musculus with 12 samples.

Results

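The genes described here are 55 mitosis genes of the mouse, chosen by symbol from a list of genes that act between entry into mitosis and the separation of daughter cells. All 55 were among the 34650 gene names on the array, where 77 probes carry their names. Expression was measured in B cells purified from mouse spleen by negative selection (BALB/c, female, 9 weeks old), either wild type or STAT6 ko, a strain that lacks STAT6, the transcription factor that the IL-4 receptor activates. Every culture, controls included, had received an antibody to CD40 at 10 µg/ml together with LPS (lipopolysaccharide) at 2 µg/ml for 4 days. IL-4 was either left out (control) or added at 25 ng/ml, which with each genotype gives 4 groups of 3 arrays, named here by genotype and addition. The labels speak of triplicates without saying that these came from separate animals, so p-values may measure only technical spread.

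Progress into mitosis is driven by CDK1 bound to cyclins A and B. Kinesins and spindle proteins then build the spindle, the NDC80 complex holds microtubules at kinetochores, and the checkpoint delays the anaphase-promoting complex (APC/C) until every chromosome is attached. Many of these genes are transcribed mainly in late S, G2 and M phase, partly under FOXM1 and the MuvB complex with B-MYB, so their summed level is commonly read as a sign of how many cells are dividing. In bulk samples such as these, a change in the share of dividing cells and a change in the RNA per cell cannot be told apart.

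Levels are log2 signals of a probe relative to the 75th percentile of all spots of its array, so they are not comparable between genes. A gene entered the tests if some probe of it exceeded background clearly on every array of 1 group or more, which left 16497 genes. Of the 55 mitosis genes, 54 were tested. Aurkb, the kinase of the chromosomal passenger complex, was not, since its only probe was well above background on 0 of the 12 arrays. The probe of Cdk1 was well above background on 7 of 12 arrays and that of Cenpf on 9 of 12, and the other 52 tested genes were measured above background on all arrays. A gene is called higher or lower at a Benjamini-Hochberg adjusted p under 0.05 at any size of change (limma, adjusted over the 16497 genes).

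Between 40.7% and 44.0% of the 59305 spots per array were well above background, and the 3 arrays per group limit the precision. Stat6 was lower by 1.94 ± 0.08 (SE) on the log2 scale in knockout cells in either condition, with adjusted p = 1.03e-06 without IL-4 and 1.84e-08 with it. The arrays came from 2 slides. Slide 1 carried knockout controls 1 and 2 and the 6 arrays of wild-type cells. Knockout control 3 shared slide 2 with the 3 arrays of knockout cells given IL-4. Of the B cell markers, 7 (Cd79a, Cd79b, Ms4a1, Pax5, Cd22, Blk and Ebf1) were well above background on all arrays. The log2 of their summed signal was 9.74 to 9.78 in wild-type controls, 9.92 to 9.96 in wild-type IL-4, 9.56 to 9.63 in knockout controls and 9.65 to 9.76 in knockout IL-4, while their mean difference from wild-type controls was -0.49 to -0.45 in wild-type IL-4 and -0.13 to -0.05 in knockout IL-4. With IL-4, 5 of the 7 were lower in wild-type cells, Blk (-1.26), Cd79a (-0.91) and Pax5 (-0.78) among them, and Cd79b (0.64) was higher. In knockout cells 1 was lower and 3 were higher. Of 11 macrophage and neutrophil markers, 7 were tested, and the log2 of their summed signal was 6.00 to 6.06 in wild-type controls, 4.72 to 4.77 in wild-type IL-4, 5.98 to 6.06 in knockout controls and 6.00 to 6.06 in knockout IL-4. With IL-4 in wild-type cells 3 of these 7 were lower, 1 was higher and 3 were not called, and the mean of the bright Mpeg1 went from 4.86 to 1.14. Lyz2, Ly6g, S100a8 and S100a9 did not pass the filter. The 10 of 12 T cell markers tested summed to 5.47 to 5.53, 5.18 to 5.23, 5.48 to 5.65 and 5.28 to 5.35 in the same order of groups, and Cd8a did not pass. Of 6 natural killer cell markers 2 were tested (summed log2 signal 2.44 to 2.59, 2.15 to 2.27, 2.29 to 2.42 and 2.03 to 2.15), and of 6 dendritic cell markers 4 were (6.79 to 7.07, 6.93 to 7.03, 7.09 to 7.19 and 6.996 to 7.203). In wild-type IL-4 the mean difference from wild-type controls was -0.57 to -0.53 for T cell markers (1 higher, 4 lower). It was 0.60 to 0.68 for dendritic cell markers (3 higher, 1 lower). In knockout IL-4 these means were -0.37 to -0.31 and 0.26 to 0.42. The plasma cell genes (10 of 12 tested) summed to 9.11 to 9.17, 9.18 to 9.20, 8.96 to 9.14 and 8.35 to 8.48, but their mean difference from wild-type controls was -0.92 to -0.82 in wild-type IL-4 and -1.04 to -0.91 in knockout IL-4. Igj changed by -5.82 and -3.44 with IL-4 in wild-type and knockout cells, Derl3 by -3.07 and -1.66 and Prdm1 by -2.81 and -1.69, while the bright Xbp1 changed by 0.87 and -0.90. The part of these shifts in the results below was not tested.

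The promoters of mitosis genes are known for a pair of elements, a hexamer named the cell cycle genes homology region (TTTGAA or TTCGAA), which the MuvB complex binds near the transcription start, and CCAAT boxes bound by NF-Y. RefSeq windows (GRCm38.p6) from 250 bases before to 50 bases after the start were found for 45 of the 55 genes. On either strand, 34 of these 45 windows (75.6%) held TTTGAA or TTCGAA, against 19.4% of the windows of 27025 mouse genes. CCAAT was present in 33 of the 45 (73.3%) and in 37.9% of all windows, and 29 (64.4%) held both, against 7.70% of all. Of the 47 hexamers in members, 33 (70.2%) began within 50 bases of the start, against 24.7% of the 6066 hexamers in all windows. The letters TTCNNNNGAA, the pattern that STAT6 prefers, were in 4 of 45 windows (8.89%) and in 6.99% of all, and TTCNNNGAA in 1 of 45 (2.22%) and in 8.47% of all. These are matches of letters only, and the median GC content also differed, at 58.7% for members and 52.7% for all. The following stretches run 5′ to 3′ from 120 bases before to 20 bases after the start, with the letters of the hexamer and of the CCAAT box in capitals, also where they lie on the other strand and so read in reverse complement. They were chosen after the matches had been seen: Prc1, Kif11 and Ube2c are among the genes that IL-4 raised most in wild-type cells, Ccnb2 and Top2a carry 3 CCAAT each here, and Melk, whose response differed most by genotype after that of Bub1b, has none of these letters.
Prc1, chr7:80294331-80294470, plus strand: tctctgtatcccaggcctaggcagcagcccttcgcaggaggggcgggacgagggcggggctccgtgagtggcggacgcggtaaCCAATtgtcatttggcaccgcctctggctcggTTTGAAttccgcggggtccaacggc
Kif11, chr19:37376262-37376401, plus strand: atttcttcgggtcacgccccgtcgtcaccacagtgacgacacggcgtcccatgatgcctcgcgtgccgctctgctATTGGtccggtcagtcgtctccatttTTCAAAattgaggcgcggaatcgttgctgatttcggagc
Ube2c, chr2:164769809-164769948, plus strand: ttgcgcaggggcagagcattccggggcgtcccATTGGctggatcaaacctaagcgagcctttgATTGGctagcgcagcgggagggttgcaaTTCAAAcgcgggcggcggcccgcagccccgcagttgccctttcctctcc
Ccnb2, chr9:70421535-70421674, minus strand: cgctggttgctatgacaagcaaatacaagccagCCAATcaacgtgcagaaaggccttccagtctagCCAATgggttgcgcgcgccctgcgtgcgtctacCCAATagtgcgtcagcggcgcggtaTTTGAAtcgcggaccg
Top2a, chr11:99024170-99024309, minus strand: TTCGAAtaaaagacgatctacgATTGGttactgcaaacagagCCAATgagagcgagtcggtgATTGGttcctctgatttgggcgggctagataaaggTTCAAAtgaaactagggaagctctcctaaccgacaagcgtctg
Melk, chr4:44300797-44300936, plus strand: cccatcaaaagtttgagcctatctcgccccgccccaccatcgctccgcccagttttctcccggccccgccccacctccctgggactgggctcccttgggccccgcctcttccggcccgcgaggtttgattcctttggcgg

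The first comparison asks how IL-4 changed these genes in cells that have STAT6. In wild-type cells IL-4 raised 42 of the 54 genes and lowered 0, where 26.4% of all genes tested were called higher and 30.8% lower. The median log2 change of the 54 was 0.33, against -0.04 over all genes, and the quartiles were 0.22 and 0.45. No member changed by 2-fold, as did 5.72% of all genes upward and 6.95% downward. All 3 IL-4 arrays lay above all 3 controls for 49 of the 54, where 31.8% of all genes did so. The largest changes were those of Anln (0.87), Prc1 (0.83) and Foxm1 (0.64), and Kif15 (-0.03) was the only one of the 54 with an estimate below 0.

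The second comparison asks the same in cells without STAT6. There IL-4 raised 51 of 54 and lowered 0, where 27.5% of all genes were higher and 14.7% lower. The median log2 change was 0.63, against 0.05 over all genes, with quartiles of 0.54 and 0.68. The range ran from 0.14 (Cdc25b) to 0.97 (Melk), so again no member reached 2-fold (0.788% of all genes rose and 2.73% fell that far). With slide as a block, 49 of 54 were higher (21.5% of all genes) with a median of 0.67, and Bub1 and Cdk1 lost their calls. These estimates set the 3 IL-4 arrays against knockout control 3 alone, so they equal those within slide 2. That control held the lowest value of its group for 38 of 54 genes. Within slide 2 alone, where 1 control array faced 3 IL-4 arrays, 53 of 54 estimates were above 0 and 16 passed the adjusted p, where 2.07% of all genes were called higher.

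The heat map of all 54 genes shows both responses array by array. The mean level of the 54 genes, relative to the wild-type control mean, was 0.33 to 0.37 on the wild-type IL-4 arrays. It was 0.63, 0.61 and 0.45 on knockout IL-4 arrays 1 to 3 and between -0.08 and 0.00 on the knockout controls. All 6 IL-4 arrays lay above all 6 controls for 43 genes (11.8% of all genes tested), and for 30 of these every knockout IL-4 array also lay above every wild-type IL-4 array (2.36% of all). Arrays differed within groups as well. Knockout IL-4 array 3 held the lowest value of its group for 47 of 54 genes, knockout control 3 for 38 and wild-type control 1 for 46.

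**Figure D1:**
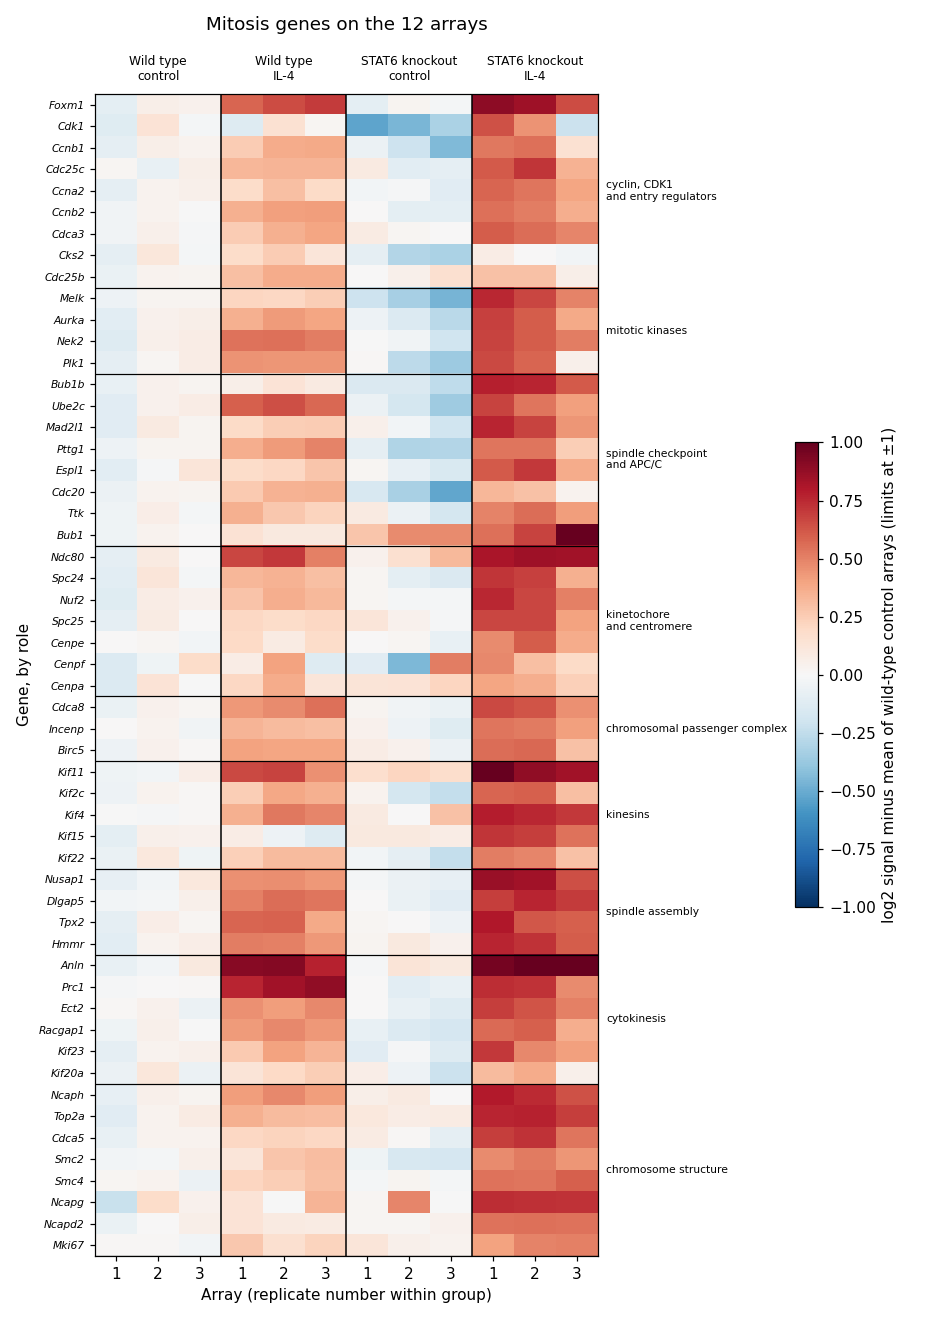
Log2 signal of the 54 tested mitosis genes (rows, grouped by role) on the 12 arrays (columns), each minus the mean of the 3 wild-type control arrays of that gene; colours stop at ±1, and a few values in the knockout IL-4 group lie beyond. The IL-4 arrays of both genotypes are redder than the controls, most so in the knockout, and knockout IL-4 array 3 is the palest of its group for most genes.

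Of the 9 cyclins, CDK1 partners and entry regulators, 7 rose with IL-4 in wild-type cells and 8 in knockout cells. Beside the counts of this and each later role, 26.4% of all genes tested were called higher in wild-type cells and 27.5% in knockout cells. Foxm1 encodes the forkhead factor that drives G2 and M phase transcription. Its levels were 1.72, 1.87 and 1.86 in wild-type controls, 2.40, 2.47 and 2.52 in wild-type IL-4, 1.72, 1.85 and 1.80 in knockout controls and 2.71, 2.67 and 2.47 in knockout IL-4. The IL-4 arrays of each genotype lay clear of their controls, while knockout and wild-type IL-4 arrays overlapped. Foxm1 rose by 0.64 ± 0.07 (SE) in wild-type cells (1.56-fold, adjusted p = 2.98e-05) and by 0.83 ± 0.07 in knockout cells (1.78-fold, adjusted p = 1.79e-05).

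Ccnb1 encodes cyclin B1. Its levels were 3.24, 3.39 and 3.37 in wild-type controls, 3.59, 3.70 and 3.72 with IL-4, 3.28, 3.12 and 2.90 in knockout controls and 3.86, 3.88 and 3.49 with IL-4. Both IL-4 groups lay above their controls, with the widest spread in the knockout groups. The change was 0.33 ± 0.12 in wild-type cells (adjusted p = 0.0337), a call that ended when any of 5 arrays was left out (each wild-type control, wild-type IL-4 2 or 3), and 0.64 ± 0.12 in knockout cells (adjusted p = 0.00171). Cyclin A2 (Ccna2) and cyclin B2 (Ccnb2) rose by 0.23 and 0.39 in wild-type and by 0.56 and 0.54 in knockout cells, and the Ccna2 call in wild-type cells ended without wild-type control 1.

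Cdk1 was dim. Its levels were -3.70, -3.43 and -3.59 in wild-type controls, -3.70, -3.42 and -3.55 with IL-4, -4.10, -4.03 and -3.89 in knockout controls and -2.94, -3.12 and -3.79 with IL-4. The wild-type groups coincided, and the third knockout IL-4 array stood apart from the other two. The probe was well above background on 0 of 3 knockout controls and on 2 of 3 knockout IL-4 arrays, so the size of the knockout response was not measured. The model gave a rise of 0.73 (adjusted p = 0.0101), a call that was lost with slide as a block. Raising the dim controls to the lowest signal well above background on their array gave 1.64-fold. That is not a lower bound, because the IL-4 mean includes an array not well above background.

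Cdc25c, the phosphatase that activates CDK1 at entry, rose by 0.34 and 0.59 in wild-type and knockout cells, and Cdca3, which promotes the destruction of the kinase WEE1, by 0.33 and 0.52. Cdc25b, a phosphatase of the same family, was called in wild-type cells only: it rose by 0.35 ± 0.07 in wild-type cells (adjusted p = 0.00199), while its change in knockout cells was 0.14 ± 0.07 (adjusted p = 0.139). The difference between these responses, 0.20 ± 0.10, did not pass the test (adjusted p = 0.128). Cks2, a small subunit of CDK complexes, changed by 0.19 in wild-type cells, below the threshold (adjusted p = 0.0561), and rose by 0.25 in knockout cells, a call lost without knockout control 2 or 3 or knockout IL-4 1 or 2.

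The 4 mitotic kinases all rose in both genotypes. Melk, a kinase expressed in dividing cells, had levels of 2.57, 2.65 and 2.65 in wild-type controls, 2.84, 2.83 and 2.87 with IL-4, 2.42, 2.29 and 2.16 in knockout controls and 3.38, 3.29 and 3.12 with IL-4. The groups formed 4 separate levels, lowest in knockout controls and highest in knockout IL-4. Melk rose by 0.22 ± 0.08 in wild-type cells (1.17-fold, adjusted p = 0.0321) and by 0.97 ± 0.08 in knockout cells (1.96-fold, adjusted p = 1.00e-05). The wild-type call ended when any 1 of the 6 wild-type arrays was left out. Aurka, which matures the centrosomes, rose by 0.39 and 0.71, Nek2, which separates them, by 0.54 and 0.68, and Plk1, the polo-like kinase that acts throughout mitosis, by 0.44 and 0.64. The wild-type call of Plk1 ended when any of 5 of the wild-type arrays was left out.

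Of the 8 checkpoint and APC/C genes, 4 rose in wild-type cells and 8 in knockout cells. Bub1b encodes BUBR1, a subunit of the mitotic checkpoint complex that inhibits the APC/C. Its levels were 2.58, 2.69 and 2.68 in wild-type controls, 2.71, 2.78 and 2.74 with IL-4, 2.50, 2.50 and 2.39 in knockout controls and 3.43, 3.41 and 3.26 with IL-4. The other groups lay close together, knockout controls lowest, and the knockout IL-4 arrays stood above all of them. The change was 0.09 ± 0.06 in wild-type cells (adjusted p = 0.202) and 0.90 ± 0.06 in knockout cells (1.87-fold, adjusted p = 3.49e-06).

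Ube2c, the ubiquitin-conjugating enzyme of the APC/C, behaved otherwise, with rises of 0.60 and 0.74. Its activator Cdc20 rose by 0.32 and 0.56, and the wild-type call ended without wild-type control 1 or wild-type IL-4 3. The checkpoint kinase Ttk rose by 0.28 and 0.54. Securin (Pttg1), the inhibitor of separase, rose by 0.43 and 0.67, whereas separase (Espl1) and Mad2l1, another checkpoint subunit, changed by 0.22 and 0.23 in wild-type cells without passing the threshold and rose by 0.64 and 0.68 in knockout cells. For Bub1, the kinase that recruits checkpoint proteins to kinetochores, knockout IL-4 array 3 was the highest of its group: its knockout IL-4 levels were 2.23, 2.36 and 2.85 against 1.96, 2.16 and 2.15 in knockout controls. Its rise of 0.39 ± 0.13 (adjusted p = 0.0360) was lost with slide as a block and when any knockout control or wild-type control 3 was left out.

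**Figure D2:**
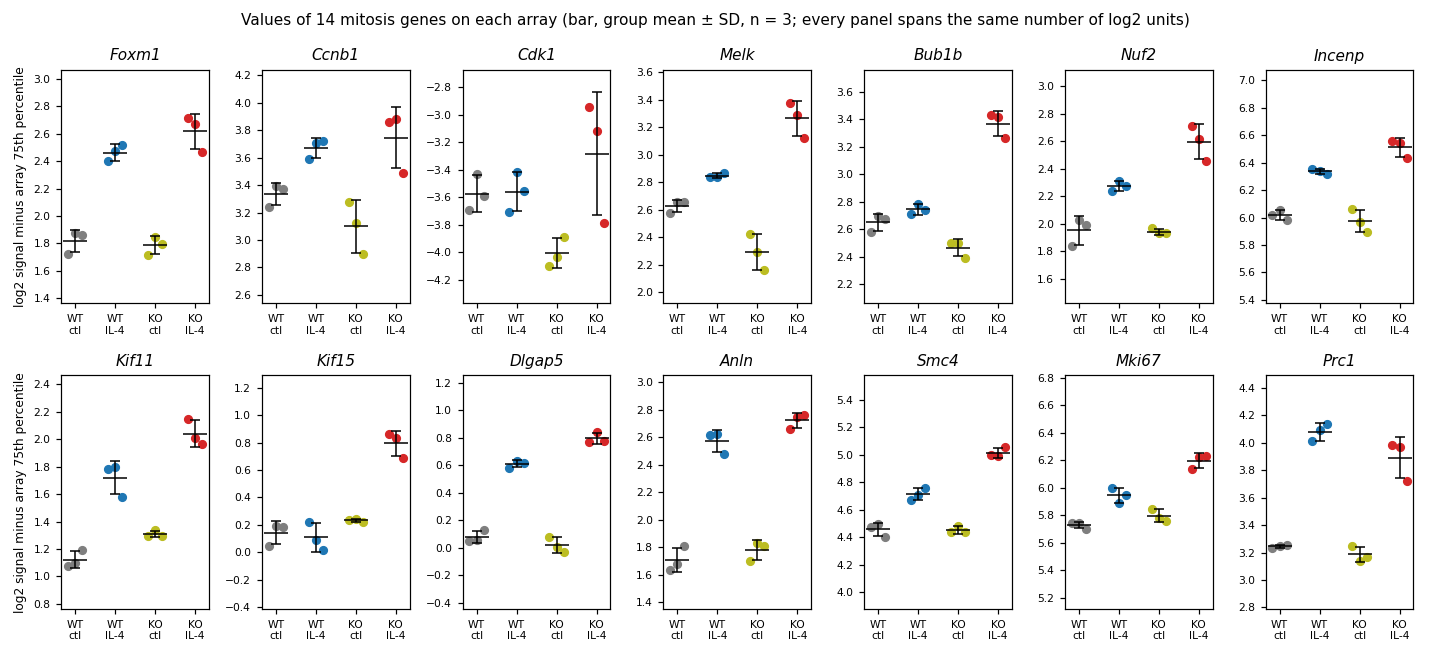
Log2 signal of 14 mitosis genes on each array (points) with the group mean and SD (n = 3); WT is wild type, KO is STAT6 knockout, ctl is control. Foxm1, Anln and Prc1 are high in both IL-4 groups, Bub1b, Melk and Kif15 are high mainly in knockout IL-4, and the third Cdk1 array of that group lies apart.

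Of the 7 kinetochore and centromere genes, 5 rose in wild-type and 5 in knockout cells. Nuf2, a subunit of the NDC80 complex, had levels of 1.84, 2.03 and 1.99 in wild-type controls, 2.24, 2.31 and 2.27 with IL-4, 1.97, 1.93 and 1.93 in knockout controls and 2.71, 2.62 and 2.46 with IL-4. Controls of both genotypes overlapped, wild-type IL-4 lay above them and knockout IL-4 above that. Nuf2 rose by 0.32 ± 0.07 (adjusted p = 0.00273) and 0.65 ± 0.07 (adjusted p = 6.50e-05). The 4 subunits of the complex (Ndc80, Nuf2, Spc24 and Spc25) rose by 0.20 to 0.62 in wild-type cells and by 0.53 to 0.66 in knockout cells. Spc25, at the low end, lost its wild-type call with slide as a block and without any 1 of 9 arrays, and Spc24 lost its own without wild-type control 1. Ndc80 rose nearly as far in wild-type (0.62) as in knockout cells (0.66).

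The motor Cenpe, which moves chromosomes to the spindle equator, changed by 0.15 in wild-type cells (adjusted p = 0.0591) and rose by 0.50 in knockout cells. Cenpa, the centromeric histone H3 variant, rose by 0.23 in wild-type cells, a call lost when any of 4 wild-type arrays was left out, and changed by 0.17 ± 0.08 in knockout cells (adjusted p = 0.126). Cenpf, a dim probe with an SE of 0.22, passed in neither.

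The 3 tested subunits of the chromosomal passenger complex, which corrects faulty attachments, rose in both genotypes. Incenp, its scaffold, had levels of 6.02, 6.06 and 5.98 in wild-type controls, 6.36, 6.34 and 6.32 with IL-4, 6.06, 5.97 and 5.90 in knockout controls and 6.56, 6.54 and 6.43 with IL-4. The controls overlapped and the IL-4 groups were separate. The rises were 0.32 ± 0.05 (adjusted p = 0.000514) and 0.53 ± 0.05 (adjusted p = 4.16e-05). Birc5 (survivin) rose by 0.40 and 0.46 and Cdca8 (borealin) by 0.49 and 0.61.

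Among the 5 kinesins, 4 rose in wild-type and 5 in knockout cells. Kif11 encodes the motor that pushes spindle poles apart. Its levels were 1.08, 1.10 and 1.19 in wild-type controls, 1.78, 1.80 and 1.58 with IL-4, 1.29, 1.34 and 1.30 in knockout controls and 2.15, 2.01 and 1.97 with IL-4. Each group was separate from the others. Kif11 rose by 0.60 ± 0.07 (1.51-fold, adjusted p = 3.70e-05) and 0.73 ± 0.07 (1.66-fold, adjusted p = 3.00e-05).

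Kif15, a motor that can stand in for Kif11 in holding the spindle bipolar, differed. Its levels were 0.05, 0.19 and 0.19 in wild-type controls, 0.22, 0.09 and 0.02 with IL-4, 0.24, 0.24 and 0.22 in knockout controls and 0.86, 0.83 and 0.69 with IL-4. The wild-type groups overlapped, and only the knockout IL-4 arrays stood apart among these 12 arrays. The change was -0.03 ± 0.07 in wild-type cells (adjusted p = 0.691) and 0.56 ± 0.07 in knockout cells (adjusted p = 0.000138). Kif2c, which depolymerises microtubules at centromeres, rose by 0.33 and 0.62, Kif22, which moves chromosome arms, by 0.29 and 0.55, and Kif4, a motor of chromosomes and the central spindle, by 0.46 and 0.62.

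The 4 spindle assembly genes rose in both genotypes. Dlgap5 (HURP), which stabilises kinetochore fibres, had the smallest adjusted p of all 54 genes in the knockout response. Its levels were 0.05, 0.06 and 0.13 in wild-type controls, 0.58, 0.63 and 0.61 with IL-4, 0.08, 0.01 and -0.03 in knockout controls and 0.77, 0.84 and 0.78 with IL-4. The controls overlapped, and the IL-4 groups were tight and separate. Dlgap5 rose by 0.53 ± 0.05 (adjusted p = 4.15e-06) and 0.78 ± 0.05 (adjusted p = 2.12e-06). Nusap1, which bundles microtubules around chromatin, rose by 0.45 and 0.84, Tpx2, the activator of Aurora A, by 0.52 and 0.68, and Hmmr, a spindle pole protein, by 0.48 and 0.64.

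Of the 6 cytokinesis genes, 5 rose in wild-type and 6 in knockout cells, and they held both of the largest wild-type changes. Anln encodes anillin, the scaffold of the contractile ring. Its levels were 1.64, 1.68 and 1.81 in wild-type controls, 2.62, 2.62 and 2.48 with IL-4, 1.70, 1.83 and 1.81 in knockout controls and 2.66, 2.75 and 2.77 with IL-4. Controls of both genotypes overlapped, and the IL-4 groups lay close together and far above them. Anln rose by 0.87 ± 0.06 (1.82-fold, adjusted p = 1.23e-06) and 0.94 ± 0.06 (1.93-fold, adjusted p = 4.21e-06).

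Prc1, which bundles the microtubules of the central spindle, had levels of 3.23, 3.25 and 3.26 in wild-type controls, 4.01, 4.09 and 4.14 with IL-4, 3.25, 3.14 and 3.17 in knockout controls and 3.98, 3.97 and 3.72 with IL-4. It was one of 6 members with the highest mean in wild-type IL-4. It rose by 0.83 ± 0.07 (1.78-fold, adjusted p = 3.64e-06) in wild-type and by 0.70 ± 0.07 (1.63-fold, adjusted p = 4.56e-05) in knockout cells. The partners of centralspindlin, Kif23 and Racgap1, rose by 0.33 and 0.45 in wild-type and by 0.62 and 0.64 in knockout cells, and Ect2, the RhoA activator that they recruit, by 0.45 and 0.67. Kif20a, a motor that carries the passenger complex to the central spindle, changed by 0.19 (adjusted p = 0.121) and rose by 0.31, the latter lost without knockout control 2 or 3 or knockout IL-4 1 or 2.

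Of the 8 chromosome structure genes, 6 rose in wild-type and 8 in knockout cells. Smc4, a core subunit of condensin, had levels of 4.48, 4.49 and 4.40 in wild-type controls, 4.67, 4.71 and 4.76 with IL-4, 4.44, 4.48 and 4.44 in knockout controls and 4.999, 4.988 and 5.053 with IL-4. The controls coincided, and knockout IL-4 lay clear of wild-type IL-4. Smc4 rose by 0.26 ± 0.04 (adjusted p = 0.000639) and 0.56 ± 0.04 (adjusted p = 9.91e-06). The 5 condensin I genes (Ncapd2, Ncapg, Ncaph, Smc2 and Smc4) changed by 0.11 to 0.44 in wild-type cells, 3 of them past the threshold, and rose by 0.52 to 0.68 in knockout cells.

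Mki67, the proliferation marker Ki-67, which coats mitotic chromosomes, was 5.74, 5.74 and 5.70 in wild-type controls, 6.00, 5.89 and 5.95 with IL-4, 5.85, 5.78 and 5.76 in knockout controls and 6.13, 6.22 and 6.23 with IL-4. Both IL-4 groups lay above all controls, and knockout IL-4 was the higher. The changes were among the smaller ones that passed, 0.22 ± 0.05 (1.16-fold, adjusted p = 0.00295) and 0.40 ± 0.05 (1.32-fold, adjusted p = 0.000133). Top2a, the topoisomerase that untangles sister chromatids, rose by 0.33 and 0.66, and Cdca5 (sororin), which protects cohesion, by 0.21 and 0.65. The wild-type call of Cdca5 ended without wild-type control 1.

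The difference between the responses was tested as an interaction, the wild-type response minus the knockout response. It was below 0 for 51 of the 54 genes, with a median of -0.24 against -0.10 over all genes. It passed the test for 19 genes, all with the larger response in knockout cells, where 28.3% of all genes had a called difference in that direction and 16.4% in the other. As a share of the 54, 19 is near that background. Without knockout IL-4 array 3 the count was 34 (32.1% of all genes in that direction), and with any other array left out it was at least 13. Keeping dim probes in the test gave 10 (9.35% of all genes). With each array centred on the median of the tested genes 12 passed, where 21.4% of all genes did. As a share of the 54, 12 is also near its background. In the plot of the responses of each genotype against the other the 19 genes lie above the line of equal responses, with most of the uncalled genes, some of them farther from it than called ones. Over the 54 genes the responses correlated at r = 0.429, and over all 16497 genes at r = 0.301. The genes share arrays within each response, and the responses share none.

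**Figure D3:**
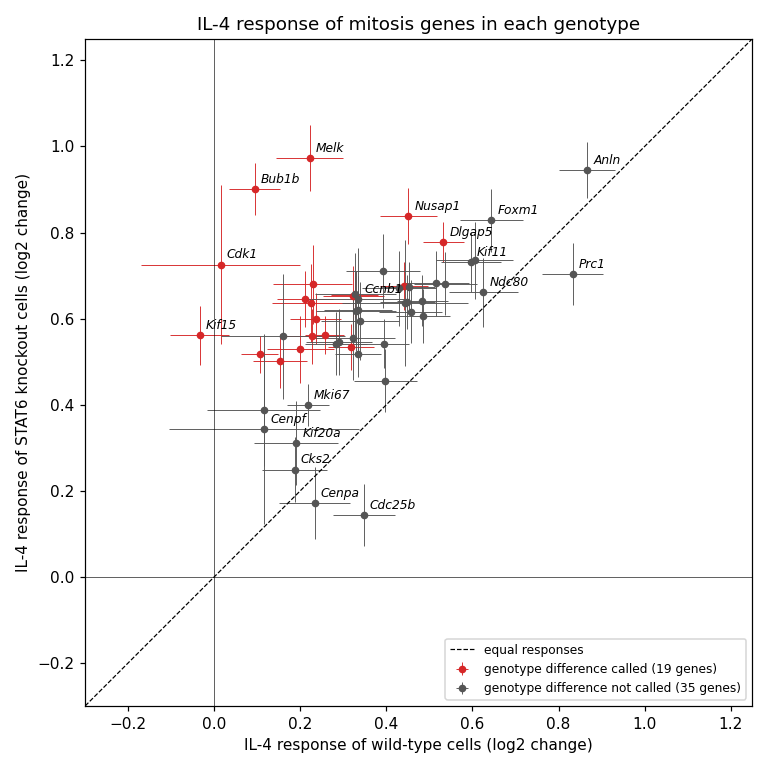
Log2 change with IL-4 in wild-type cells (x axis) and in STAT6 knockout cells (y axis) for 54 mitosis genes; bars are SE and the dashed line marks equal responses. Of the 54 points 51 lie above the line; Bub1b, Melk, Cdk1 and Kif15 lie farthest from it, and Anln, Ndc80 and Prc1 lie near it.

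Bub1b differed most, by -0.81 ± 0.08 (adjusted p = 3.58e-05), followed by Melk at -0.75 ± 0.11 (adjusted p = 0.000367). For Cdk1 the model gave -0.71 (adjusted p = 0.0483), but its probe was well above background on 0 of 3 knockout controls, so the size is not a measured one, and the call was lost with slide as a block and without any 1 of 11 arrays. For Kif15 it was -0.60 ± 0.10 (adjusted p = 0.000717). In the coordinates of the files (mm9) the probes behind these values read Bub1b at chr2:118466830-118466889 (plus strand), Melk at chr4:44377041-44377100 (plus strand), Kif15 at chr9:122927298-122927357 (plus strand) and Cdk1 at chr10:68801072-68801131 (minus strand). With slide as a block 22 genes passed (26.3% of all genes in that direction), 17 of the 19 among them, with Cdk1 and Nuf2 lost. Of the 19, 13 passed whichever single array was left out: Bub1b, Melk, Kif15, Mad2l1, Cdca5, Ncapd2, Nusap1, Smc2, Cenpe, Ccna2, Top2a, Smc4 and Dlgap5. Espl1, Ncaph, Spc25, Incenp, Nuf2 and Cdk1 did not.

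By role, 6 of 8 chromosome structure genes differed between genotypes (Cdca5, Ncapd2, Ncaph, Smc2, Smc4 and Top2a), 3 of 8 checkpoint and APC/C genes, 3 of 7 kinetochore genes, 2 of 4 spindle assembly genes, 2 of 9 entry regulators and 0 of 6 cytokinesis genes. The mitotic kinases, the tested passenger complex genes and the kinesins held 1 each, of 4, 3 and 5. Over all genes tested, 28.3% were called in this direction, and the counts by role were not tested against that share. Of the cytokinesis genes, Anln and Prc1 had differences of -0.08 ± 0.09 and 0.13 ± 0.10, and Kif23 and Ect2 came nearest to the threshold (adjusted p = 0.0619 and 0.0548). Whether roles differ from each other was not tested. Taking the 3 tests together, 12 genes rose in both genotypes and further in the knockout (0.976% of all genes tested), and 28 rose in both with no called difference (8.12% of all). Another 7 rose in the knockout with a called difference but no wild-type call (6.29% of all), and 4 passed in the knockout only (4% of all). Cdc25b and Cenpa passed in the wild type only (3.56% of all) and Cenpf in none (26.9% of all).

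The genotypes were also compared directly. Without IL-4, 0 of 54 genes were higher in knockout cells (4.73% of all genes) and 1 was lower (6.96% of all genes), and 8 had an unadjusted p under 0.05. The one was Melk, at -0.33 ± 0.08 (adjusted p = 0.0279), and this call was lost with slide as a block and without any 1 of 5 control arrays. The median difference over the 54 was -0.05, against -0.04 over all genes. With IL-4, 27 were higher in knockout cells (29.8% of all genes) and 1 lower (21.3% of all genes), with a median of 0.21 against 0.06 over all genes. The largest were Bub1 at 0.68 ± 0.13 and Kif15 at 0.68 ± 0.07. The estimate for Bub1 was already 0.41 without IL-4, where it was not called, and its interaction of -0.27 was not called either. All 8 chromosome structure genes were among the 27, and of the cytokinesis genes 0 were. Prc1 was the one lower gene, by -0.19 ± 0.07 (adjusted p = 0.0491), a call lost with slide as a block and without any 1 of 9 arrays. With slide as a block 18 genes were higher (18.1% of all genes), and Bub1, Kif11, Kif4, Nuf2, Spc24, Cdca3, Hmmr, Espl1 and Smc2 were no longer called. Scaling each array to its median in place of its 75th percentile left 11 of the 27.

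The wider set of genes gave the context. Of 101 other mitosis genes 97 were tested. With IL-4 in wild-type cells 52 rose and 5 fell (median 0.24), where 26.4% and 30.8% of all genes did. In knockout cells 80 rose and 0 fell (median 0.43), where 27.5% and 14.7% of all genes did. Ska1, which couples kinetochores to microtubules, rose by 0.79 and 0.89, Mastl, the Greatwall kinase that restrains a phosphatase opposing CDK1, by 0.69 and 0.84, and Pkmyt1, an inhibitory kinase of CDK1, by 0.60 and 0.77. Lin54, a DNA-binding subunit of MuvB, rose by 0.73 in wild-type cells. The interaction passed for 36 with the larger knockout response (28.3% of all genes) and 1 with the smaller (16.4% of all genes). Among the former were Mybl2, which encodes B-MYB (-0.71), Cenpm (-0.80), Aspm, a spindle pole protein (-0.70), and the tubulin Tubb5 (-0.38). Without IL-4, 3 of the 97 were higher in knockout cells (Lin54 by 0.24, Mastl by 0.18 and Cep55 by 0.24), where 4.73% of all genes were. Another 2 were lower (6.96% of all genes), Stag1 (-0.23) among them. With IL-4, 48 were higher (29.8% of all genes) and 4 lower (21.3%), with Mybl2 (0.70) and Esco2 (0.79) the first by adjusted p.

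DNA replication genes, which act in S phase, showed another pattern of counts. Of 45 tested, 10 were raised and 6 lowered by IL-4 in wild-type cells (median 0.04), where 26.4% and 30.8% of all genes were. In knockout cells 36 rose and 0 fell (median 0.41), where 27.5% and 14.7% of all genes did. The interaction passed for 29 with the larger knockout response (28.3% of all genes) and 1 with the smaller (16.4%). The one was Pole2, a subunit of DNA polymerase epsilon, which rose by 1.68 ± 0.07 in wild-type cells (3.21-fold) and had an interaction of 1.38 ± 0.09. Cdt1, the licensing factor, and Tk1, thymidine kinase, rose by 0.65 and 0.64 in wild-type cells, and Rfc2, of the clamp loader, fell by 0.49 there and had an interaction of -0.91. In knockout cells Pold1, the catalytic subunit of polymerase delta, rose by 0.93, Lig1, the ligase of lagging-strand fragments, by 0.53, Chaf1a, of the chromatin assembly factor, by 0.70 and Dnmt1, the maintenance DNA methyltransferase, by 0.65. Uhrf1, its partner, had an interaction of -0.96 and Lig1 of -0.45. Without IL-4 only Mcm6, of the replicative helicase, was called (-0.23), where 6.96% of all genes were lower. With IL-4, 32 of the 45 were higher in knockout cells (29.8% of all genes) and 1, Pole2, was lower (21.3% of all genes). The difference between the lists was not tested.

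**Figure D4:**
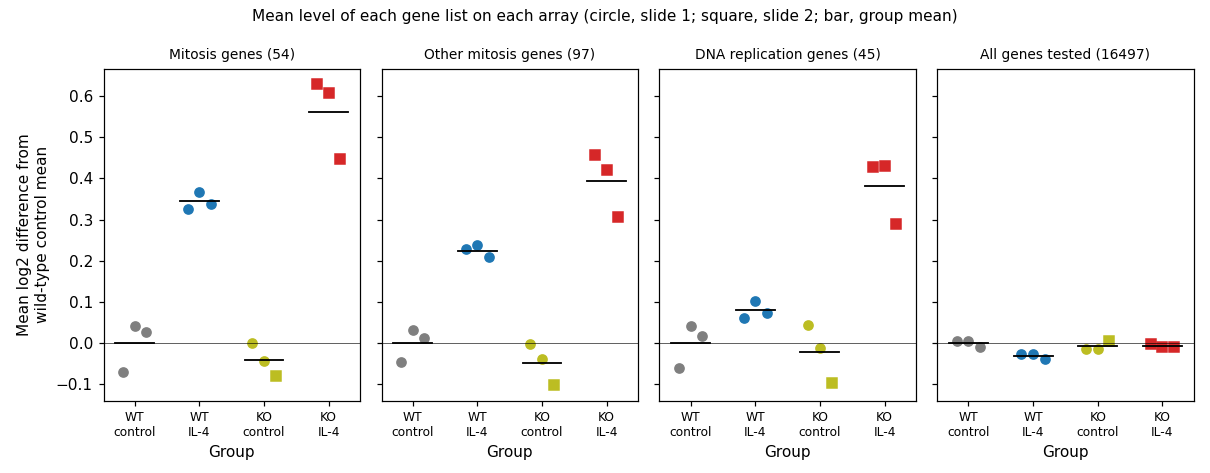
Mean log2 difference from the wild-type control mean (y axis) over the 54 mitosis genes, 97 other mitosis genes, 45 DNA replication genes and all 16497 genes, for each array (points; circles slide 1, squares slide 2; bars are group means). Wild-type IL-4 arrays reach 0.33 to 0.37 for mitosis genes and 0.06 to 0.10 for replication genes, knockout IL-4 arrays reach 0.45 to 0.63 and 0.29 to 0.43, and all genes stay between -0.04 and 0.01.

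Where a gene had more than 1 kept probe, the brightest stood for it. Both Mki67 probes gave 0.21 to 0.22 in wild-type and 0.40 in knockout cells, and the probes of Ccnb1, Foxm1, Birc5, Cdca8, Incenp, Kif2c, Pttg1, Racgap1, Ube2c and Dlgap5 had estimates of the same sign in both responses. Probes disagreed for 3 genes. The dimmer Mad2l1 probes gave -0.24 and -0.12 in wild-type cells against 0.23 for the one used, and 0.49 and 0.39 in knockout cells against 0.68. The second Tpx2 probe gave -0.10 in wild-type and 0.33 in knockout cells, against 0.52 and 0.68. The second Kif23 probe, well above background on 6 of 12 arrays, gave 1.02 and 0.91, against 0.33 and 0.62.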

How the data were processed

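The authors deposited scanner files made with Agilent Feature Extraction 10.7.3.1, per the file headers. Per the file headers, the processed intensity of each spot had been background-subtracted and detrended within an array before it was deposited, and dim spots carry a surrogate. The authors also deposited log2 values, a single one per gene and array, quantile normalised per the header of that file, which served as an alternative.

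The log2 intensity minus the array's 75th percentile was used. Outlier spots (122 to 196 per array) were dropped and spots of a probe averaged. A probe was kept if every array of 1 group or more read it well above background and each group had at least 2 values (22940 probes), and the brightest stood for its gene (16497 genes). Group means of the 12 arrays were estimated in limma 3.58.1 under R 4.3.3 (data.table version 1.17.8) for 5 contrasts, with Benjamini-Hochberg adjustment over all genes. The code was tested on simulated data. Plots were made with Python 3.11.15, pandas 2.3.3 and matplotlib 3.10.9. Probe positions in the files are mm9 and were not used with the RefSeq windows (GRCm38.p6).

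The members and gene lists were chosen with earlier results of these data known. Values per array are given for Mki67, Foxm1, Cdk1 and Ccnb1, for the gene of each role with the smallest adjusted p in the knockout response and for the 4 largest called interactions. Prc1 and Bub1 were added after their values were seen. Of the other lists, up to 4 genes per contrast with the smallest adjusted p are named. The IL-4 responses share no arrays, whereas the other contrasts share arrays with them. Deviations of same-numbered arrays correlated at r = -0.24 to 0.39 between pairs of groups, highest for knockout control 3 and knockout IL-4 3. Arrays of unlike number gave -0.47 to 0.31. With 3 arrays per group these values cannot show whether numbers pair the samples, and the main fit used no pairing. Alternatives covered the background correction, scaling, filter, probe choice, variance model, slide, replicate block and each array left out.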

Additional observations from a re-analysis of the deposited data

Results flagged for a closer look

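The responses to IL-4 differed between the genotypes by the interaction test for 19 of 54 mitosis genes, all in a direction in which 28.3% of all genes tested were also called. Each value is the wild-type minus the knockout response on the log2 scale, so a value below 0 is a larger response in knockout cells. The largest measured above background were Bub1b (-0.81), Melk (-0.75) and Kif15 (-0.60). The model gave -0.71 for Cdk1, whose probe was well above background on 0 of 3 knockout controls, and the call was lost with slide as a block and without any 1 of 11 arrays. Mad2l1 (-0.45), Cdca5 (-0.43), Espl1 (-0.41), Ncapd2 (-0.41) and Nusap1 (-0.39) followed. The others were Smc2 (-0.36), Cenpe (-0.35), Ccna2 (-0.33), Nuf2 (-0.33), Top2a (-0.33), Spc25 (-0.33), Smc4 (-0.31), Dlgap5 (-0.25), Ncaph (-0.24) and Incenp (-0.22). All knockout IL-4 arrays came from slide 2 and all wild-type arrays from slide 1. Slide and group can be separated only through knockout control 3, and with slide as a block 17 of the 19 still passed. That array held the lowest value of its group for 38 of 54 genes. With slide as a block the median interaction went from -0.24 to -0.31. Groups of 3 arrays are too small for a test of outlying samples.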

How the results depend on the processing

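The 54 log2 changes in 5 contrasts, under each alternative, gave 6578 values, of which 6152 kept their direction or lack of a call, 281 lost a call, 145 gained one and 0 reversed. Many of these values could not reverse. Another variance model, or leaving out an array that a contrast does not use, leaves the log2 change as it was. The counts of called genes moved as follows. With a 2-fold limit every count was 0. In the knockout response 16 genes passed within slide 2, where the number of arrays falls to 4. For the interaction, 10 had the larger knockout response with no filter on dim probes (9.35% of all genes), which adds genes to the adjustment. With each array centred on the median of the tested genes, a setting chosen after the data had been seen, 12 did (21.4% of all genes). With that centring 1 gene had the smaller knockout response, as with quantile normalisation (20.6% and 18.6% of all genes). For knockout minus wild type without IL-4, 2 genes were higher with quantile normalisation or the authors' deposited values (5.10% and 5.87% of all genes). With an intensity trend or only the compared arrays 1 was (5.63% and 2.72%). In the same contrast 9 were lower with median scaling (30.9% of all genes) and 4 with normexp (9.49%). With an intensity trend 3 were lower (9.86%), and with the stricter filter 2 (9.04%). With no filter, only the compared arrays, slide as a block or within slide 0 were (0.476%, 2.76%, 1.6% and 0.715%). With IL-4, 11 were higher with median scaling (18.4% of all genes), and 2 were lower with centring (24.7%). With normexp, median scaling, no filter, only the compared arrays or slide as a block 0 were lower (8.61% to 21.7%). The cause was not tested except where the construction shows it.

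Under median scaling the all-gene median went from 0.05 to 0.20 in the knockout response and from -0.04 to -0.22 for knockout minus wild type without IL-4, while the members' medians moved from 0.63 to 0.78 and from -0.05 to -0.23. Such scaling moves every gene of an array by the same amount, so the members' difference from all genes cannot change under it.

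With each array left out in turn, between 33 and 45 genes were higher in the wild-type response (23.9% to 27.4% of all genes). In the knockout response 48 to 52 were (21.8% to 29.7%), and 13 to 34 had the larger knockout response (23.7% to 32.1%). As a share of the 54, 13 is near that background. Between 0 and 1 were higher (0.8% to 8.34% of all genes) and 0 to 5 lower (1.52% to 14.3%) in knockout cells without IL-4. With it, 23 to 39 were higher (25.5% to 30.7%) and 0 to 1 lower (18.8% to 21.7%). With the replicate block, 41 and 51 genes were higher in the wild-type and knockout responses (25.9% and 26.5% of all genes). In that setting 19 had the larger knockout response (27.1%), and Prc1 was not called, leaving 0 lower with IL-4 (20.6%). Dim probes limit Cdk1 and Cenpf, and Aurkb has no value here.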
